A study of Mus musculus with 3 samples.

Results

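The genes described here encode the C-type lectin, Siglec and Fc receptors of mice, with the adaptors, mannose receptors and scavenger receptors that work beside them. They were taken by name alone: symbols of the Clec, Siglec, Fcgr, Fcer, Fcrl, Cd209, Cd300, Lilr, Klra to Klrk, Sirp and Trem families, plus Mrc1, Mrc2, Cd163, Msr1, Marco, Tyrobp, Cd22 and Cd33. This gave 123 of the 24346 gene symbols measured, and 89 of the 123 were above 0 in at least 1 file. The series holds polyadenylated RNA of whole distal colon from 8 week old wild-type mice at steady state, as 3 files of 1 group. The sample titles carry the label JAX and name no further strain. The labels name no transgene, allele or agent, there is no second condition, and nothing says that the files came from separate animals. Levels are in FPKM, fragments scaled to transcript length and library size, summed over the isoforms of a gene, so that levels of genes of different length can be set side by side.

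C-type lectins share a fold that in some members binds sugars with the help of calcium and in others binds proteins. Siglecs bind sialic acid on the body's own cells, and Fc receptors bind the constant part of antibodies. Activating receptors of these families signal through an adaptor with an immunoreceptor tyrosine-based activation motif (ITAM), which recruits the kinase Syk, while inhibitory ones carry an inhibitory motif (ITIM) that recruits phosphatases. In the gut wall they are best known from the resident macrophages and dendritic cells under the epithelium, and from natural killer cells.

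Depth and the spread between files set how far each value can be read. The recovered depth was 3.78e+06, 3.79e+06 and 1.24e+06 mapped fragments in replicates 1, 2 and 3, so replicate 3 was the shallowest. All 123 genes together held 3760 fragments. A chi-square test against the counting error, with Benjamini-Hochberg adjustment over all 8771 single-isoform genes whose mean was 1 FPKM or higher, called 5 genes different between files (0.057%). Of the 14 receptor genes among them none was called and none had an unadjusted p under 0.05, which 4.91% of all genes tested had. In the same test over the 12629 genes of that level whatever their isoforms, 9 genes were called (0.0713%) and none of 27 receptor genes, again with none at an unadjusted p under 0.05, against 4.18% of all genes tested. At such shares a count of 0 in so few genes is close to the background. The smallest p-values were 0.0971 for Clec2d, 0.166 for Tyrobp and 0.167 for Fcer1g, each with an adjusted p of 0.998 in the chi-square test across genes with 1 isoform. The names of the 3 files carry the same index and lane. The files were therefore counted as 1 sample, and each SD below is a measurement error over the 3 files that holds no spread between animals. The tissue label was checked with 13 genes of the distal colon, all at 1 FPKM or more in every file, among them Lypd8 at 8567 ± 57.7, Car4 at 817 ± 13.5, Epcam at 794 ± 15.1 and Car1 at 454 ± 9.11 FPKM.

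Of the 123 receptor genes, 22 reached 1 FPKM in every file (17.9%), against 48.5% of all symbols. A mean of 1 FPKM or more was reached by 27 receptor genes, against 51.9% of all symbols. A further 62 were above 0 with a mean under 1 FPKM. The remaining 34 (27.6%) were listed at 0 in every file, a share close to the 29.9% of all symbols. The median receptor gene stood at 0.176 ± 0.118 FPKM and the median symbol at 1.25 ± 0.0232 FPKM. Together the receptors made up 0.0643% ± 0.00111 of the summed FPKM. Of that receptor FPKM, 55.8% ± 2.40 belonged to the lectins Clec2h, Clec2d and Clec3b, and 14.1% ± 0.863 to the adaptors Fcer1g and Tyrobp. In RNA of a whole tissue, few cells of a type and little RNA per cell cannot be told apart.

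**Figure D1:**
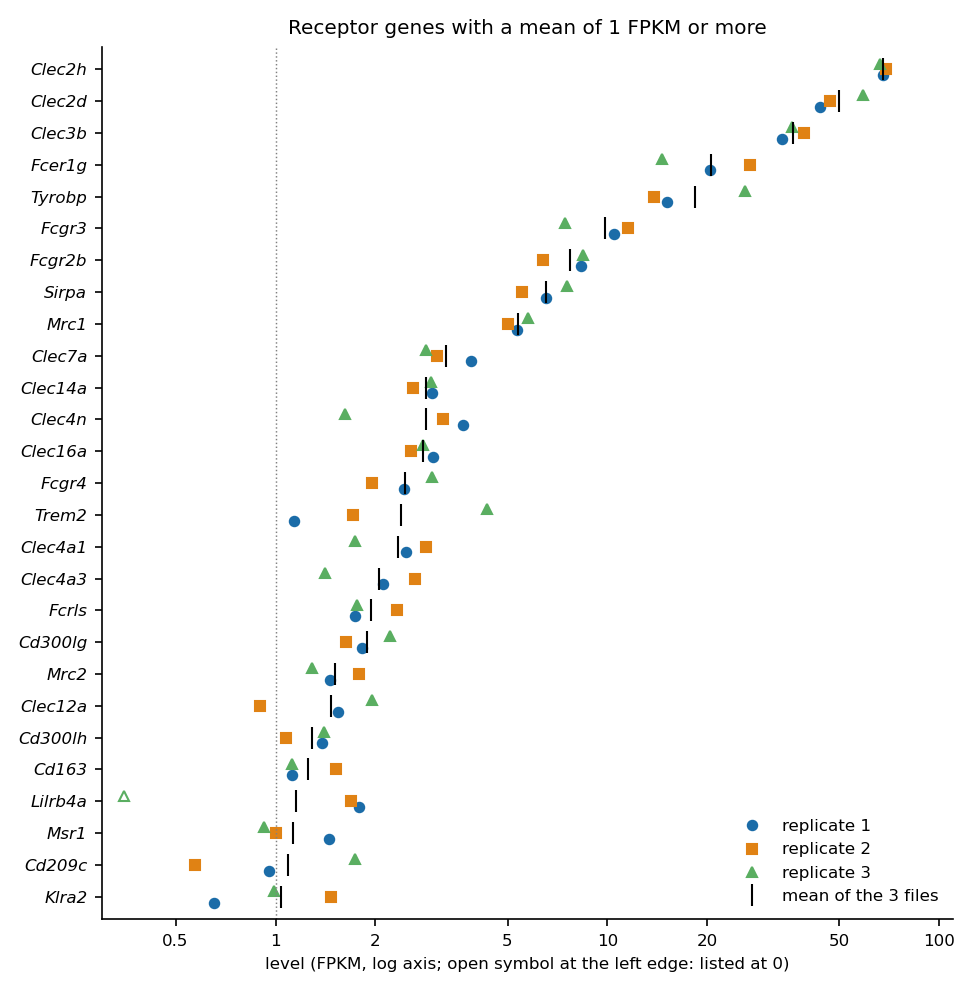
Level of each receptor gene with a mean of 1 FPKM or more, on a log axis in FPKM, with 1 symbol per file and a vertical tick at the mean; the dotted line marks 1 FPKM and an open symbol at the left edge marks a file where the gene was listed at 0. The levels run from 67.5 FPKM for Clec2h to 1.04 FPKM for Klra2, and most neighbours in the order overlap over the files.

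The order of the 27 highest genes was firm only near its top. In 21 of the 26 pairs of neighbours the values of the 3 files overlapped, and in each of these the difference lay within the counting error of 2 standard errors. The files did not overlap between Clec2h and Clec2d, Clec2d and Clec3b, Clec3b and Fcer1g, Tyrobp and Fcgr3, and Mrc1 and Clec7a. From Clec7a down to Klra2 no gene was separated from the next.

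The highest receptor-family gene was Clec2h, which encodes Clr-f, a lectin-like surface protein known from intestinal epithelium and a ligand of natural killer receptors of the NKR-P1 group. It lies on chromosome 6 (GRCm38, 128662385 to 128677374). Clec2h stood at 67.6, 68.9 and 66.0 FPKM in replicates 1, 2 and 3, a mean of 67.5 ± 1.41 from 1194 fragments. The 3 values were close, with replicate 3 the lowest. Clec2d encodes Clr-b, a widely expressed ligand that engages an inhibitory receptor on natural killer cells. It stood at 43.8, 46.8 and 58.9 FPKM (mean 49.9 ± 8.00), with replicate 3 above the other files and every value below each one of Clec2h. Of the other 5 genes of this group, Clec2e was at 1.13, 1.00 and 0 FPKM and Clec2i at 0.338, 0.491 and 0.386 FPKM, while Clec2f, Clec2g and Clec2l were listed at 0. The mean of Clec2h was thus 167 times that of Clec2i, also a ligand of the NKR-P1 group, with ratios of 200, 140 and 171 in replicates 1, 2 and 3. Clec2i rested on 7.67 fragments and its counting interval reached down to 0, so this fold is uncertain.

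The genes of the NKR-P1 receptor group were near or at 0, and not each of them is a receptor for the ligands above. Klrb1b, the inhibitory receptor for Clr-b, was at 0.645, 0.516 and 0 FPKM, from 9 fragments in all. Klrb1c, the NK1.1 antigen, rested on 2 fragments, Klrb1 and Klrb1a on 1 each, and Klrb1f and Klrb1-ps1 were listed at 0. In a list of 16 measured ligand genes written for NKG2D and NKR-P1 receptors, 6 reached 1 FPKM in every file. Of these, H2-T23, at 102 ± 5.54 FPKM, encodes Qa-1, the ligand of CD94 with NKG2A and of neither named receptor, and H2-Q10, at 3.08 ± 1.41 FPKM, is a class I gene that is no such ligand either. Beside Clec2h and Clec2d this leaves the NKG2D ligand genes Raet1e at 7.65 ± 2.06 FPKM and Raet1a at 1.53 ± 0.452 FPKM. Raet1c, at 3.07, 0.163 and 2.50 FPKM, had a higher mean than Raet1a but missed the level in replicate 2. The Raet1 genes were not searched for near-identical copies, so how far their levels can be told apart was not tested.

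Among lectins of stroma, vessels and other cells, Clec3b led. It encodes tetranectin, a secreted protein that binds plasminogen, and its values of 33.5, 39.0 and 35.9 FPKM (mean 36.1 ± 2.75) overlapped neither the gene above nor the one below. Clec14a, a surface protein of endothelial cells, stood at 2.96, 2.60 and 2.94 FPKM (mean 2.83 ± 0.205). Clec16a, which in spite of its name is an intracellular protein of endosomal trafficking and autophagy, stood at 2.98, 2.57 and 2.78 FPKM (mean 2.77 ± 0.205). Clec11a, a secreted growth factor for bone and blood progenitors, had a mean of 0.590 FPKM and Clec1a a mean of 0.170 FPKM. Clec18a, Clec3a and Clec1b, the podoplanin receptor of platelets, were listed at 0. All 10 endothelial markers were at 1 FPKM or more in every file, summing to between 50.6 and 52.3 FPKM, led by Plvap at 16.1, Pecam1 at 10.7, Emcn at 5.61 and Esam at 4.14 FPKM. All 10 fibroblast and smooth muscle markers were too, led by Tagln, Acta2, Des and Myh11 at 754, 554, 278 and 271 FPKM, and so were all 12 epithelial markers, led by Tff3, Krt8, Krt19 and Car4. Which of these cells the lectin transcripts came from was not tested.

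**Figure D2:**
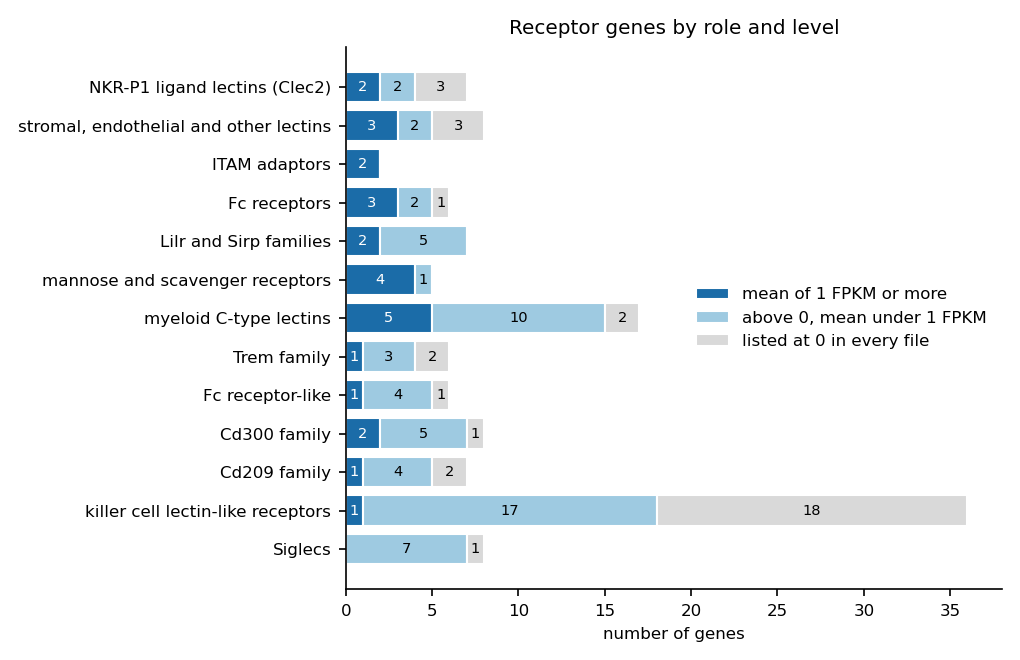
Number of receptor genes in each role group (horizontal axis), split into those with a mean of 1 FPKM or more, those above 0 with a mean under 1 FPKM, and those listed at 0 in every file. The killer cell lectin-like receptors are the largest group, with 18 of 36 gene symbols at 0, whereas all mannose, scavenger, Lilr and Sirp genes were above 0.

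Both ITAM adaptors stood above Fcgr3, the highest of the receptors that use them, in every file. Fcer1g, the common gamma chain of Fc receptors, stood at 20.3, 26.8 and 14.6 FPKM (mean 20.6 ± 6.10, 97 fragments). Tyrobp, also called DAP12, the adaptor of Trem2 and of many lectins, stood at 15.1, 13.8 and 25.9 FPKM (mean 18.3 ± 6.65, 57 fragments). Their order turned between files: the ratio of Fcer1g to Tyrobp was 1.35, 1.94 and 0.564 in replicates 1, 2 and 3. The ratio of their means was 1.12, and it ranged from 0.851 to 1.63 when each replicate was left out in turn, so no order of the adaptors was measurable at this depth.

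Signalling partners were read as a list of 20 genes, which also holds both adaptors and the ligand Cd47. In this list 13 genes were at 1 FPKM or more in every file, a level that 48.5% of all symbols reached. Which cells their transcripts came from was not tested. Bcl10, which relays signals from ITAM-coupled lectins to NF-kappaB, stood at 33.5 ± 2.56 FPKM, the phosphatase Ptpn11 at 18.4 ± 1.83 FPKM and Ptpn6, the phosphatase that ITIMs recruit in blood cells, at 8.91 ± 0.979 FPKM. The kinases Lyn and Syk stood at 11.1 ± 0.427 and 8.09 ± 1.22 FPKM. Card9, which joins Syk to Bcl10 in myeloid cells, was at 0.183, 0.183 and 0.555 FPKM, and the kinase Btk at 0.335, 0.780 and 0 FPKM. Hcst, the adaptor of NKG2D, was at 0.947, 0.954 and 5.76 FPKM, highest in the shallowest file.

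The Fc receptors for IgG formed the next group. Fcgr3, an activating receptor of low affinity (chromosome 1, 171051169 to 171059403), stood at 10.5, 11.6 and 7.43 FPKM (mean 9.83 ± 2.14, 110 fragments). Fcgr2b, the inhibitory receptor of the family (chromosome 1, 170960559 to 170976071), stood at 8.32, 6.39 and 8.42 FPKM (mean 7.71 ± 1.14, 83 fragments). The activating gene was the higher one in replicates 1 and 2 and the lower one in replicate 3. The ratio of Fcgr3 to Fcgr2b was 1.26, 1.81 and 0.883, and the ratio of the means 1.27, with 1.07 to 1.5 when each replicate was left out; the means differed by less than their counting error. Fcgr4, an activating receptor of monocytes and macrophages, stood at 2.43, 1.95 and 2.96 FPKM (mean 2.45 ± 0.506), and the mean of Fcgr3 was 4.02 times its mean. Fcgr1, the receptor of high affinity, was at 0.981, 0.763 and 0 FPKM; 3 fragments of replicate 3 alone would be worth 0.995 FPKM, more than the mean of the other two files.

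The IgE receptors were low. Fcer1a, the IgE-binding chain of mast cells and basophils, was at 0, its limit being 0.395 FPKM, the level worth 3 fragments when the 3 files are pooled. Fcer2a, the low affinity IgE receptor of B cells, was at 0.603, 0.319 and 0.214 FPKM. Fcer1g was thus measured where its IgE-binding partner was at 0. Of 12 mast cell and basophil markers 2 reached 1 FPKM in every file, Kit at 8.99 and Cma1 at 5.24 FPKM, followed by Gata2 and Mcpt2 under 1 FPKM, while Ms4a2, the beta chain of the same IgE receptor, was also listed at 0, as were Mcpt4, Tpsab1 and Mcpt8. Kit is also made by the pacemaker cells of the gut muscle. Outside the families taken by name, the epithelial IgA transporter Pigr stood at 933 ± 13.1 FPKM and the neonatal Fc receptor Fcgrt at 23.04 ± 3.75 FPKM, which is 94.96 and 2.34 times the mean of Fcgr3. With the intracellular antibody receptor Trim21 at 7.04 FPKM they were the 3 genes of a list of 6 at 1 FPKM or more in every file. Fcho1, which that list also held and which came next at 0.709 FPKM, is an endocytic adaptor and binds no immunoglobulin. Of the 6 Fc receptor-like genes, Fcrls, a gene known from microglia and other macrophages, stood at 1.74, 2.31 and 1.76 FPKM (mean 1.94 ± 0.327). Fcrla, Fcrl1, Fcrl5 and Fcrl6 had means from 0.0387 to 0.650 FPKM, and Fcrlb was listed at 0.

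The mannose and scavenger receptors were measured nearly in full. Mrc1, the macrophage mannose receptor (chromosome 2, 14229414 to 14332023), stood at 5.34, 5.02 and 5.77 FPKM (mean 5.38 ± 0.376, 239 fragments). Mrc2, a collagen receptor of fibroblasts also called Endo180, stood at 1.45, 1.78 and 1.28 FPKM (mean 1.51 ± 0.253). In every file Mrc1 was the higher of the pair, at 2.82 to 4.496 times Mrc2. Cd163, the haemoglobin-haptoglobin scavenger receptor of tissue macrophages, stood at 1.12, 1.53 and 1.12 FPKM (mean 1.26 ± 0.235). The class A scavenger receptor Msr1 was at 1.45, 1.00 and 0.924 FPKM (mean 1.13 ± 0.282). Marco, a related receptor of alveolar and splenic marginal zone macrophages, was at 0.290 FPKM in replicate 1 and at 0 in the other files, on 2 fragments.

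Among the 17 myeloid C-type lectins, 4 were at 1 FPKM or more in every file, and Clec12a had a mean above 1 FPKM. Clec7a, also called Dectin-1, a beta-glucan receptor of macrophages that carries a signalling motif of its own (chromosome 6, 129461591 to 129472779), stood at 3.87, 3.07 and 2.84 FPKM (mean 3.26 ± 0.541, 59 fragments). Clec4n, also called Dectin-2, which binds fungal mannans and signals through Fcer1g, stood at 3.67, 3.21 and 1.62 FPKM (mean 2.83 ± 1.07). Dectin-1 and Dectin-2 transcripts differed by less than their counting error. Clec4a1 and Clec4a3, of the dendritic cell immunoreceptor family, stood at 2.46, 2.84 and 1.73 FPKM (mean 2.35 ± 0.567) and at 2.11, 2.63 and 1.41 FPKM (mean 2.05 ± 0.614). Their relative Clec4a2 was at 1.03, 1.22 and 0.719 FPKM (mean 0.989 ± 0.253). In all of Clec7a, Clec4n, Clec4a1, Clec4a2 and Clec4a3, replicate 3 gave the lowest value, on 7, 2, 3, 2 and 2 fragments. Clec4a2 was below the level of the chi-square test, which called none of the others different between files. Clec12a, an inhibitory receptor that senses dead cells, was at 1.54, 0.899 and 1.95 FPKM (mean 1.46 ± 0.531) and did not share this order.

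The other myeloid lectins were under 1 FPKM. Clec4b1 was at 0.568 FPKM on 4 fragments of replicate 1 alone. Clec5a, an activating receptor that uses Tyrobp, had a mean of 0.341 FPKM on 12 fragments. Clec9a, the dead-cell receptor of cross-presenting dendritic cells, had a mean of 0.253 FPKM on 8 fragments. Clec4d rested on 2 fragments, Clec4f, a Kupffer cell lectin of the liver, on 2, and the galactose-type lectin Clec10a, Clec12b and the sinusoidal lectin Clec4g on 1 each. Clec4a4 had less than 1 fragment assigned. Clec4e, also called Mincle, the receptor for mycobacterial cord factor, and Clec4b2 were at 0, where the limits were 0.145 and 0.387 FPKM.

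Macrophage markers were read as well, and no relation between their levels and those of the receptors was tested. Of 20 resident macrophage markers, 18 were at 1 FPKM or more in every file and their sum lay between 749 and 764 FPKM. Cd63, Cd81, Lyz2 and C1qa led at 316, 139, 125 and 30.8 FPKM, of which Cd63 and Cd81 are also made by many other cells. The complement genes C1qc and C1qb stood at 28.1 and 25.8, Cd14 at 24.9 and Lyve1 at 11.7 FPKM, each above the mean of Fcgr3, the highest of the receptors that bind IgG in the families described here. Lower were the growth factor receptor Csf1r at 7.54 ± 0.366, Mertk at 7.28 ± 1.17, Cx3cr1 at 4.22 ± 0.688 and Adgre1, the F4/80 antigen, at 2.75 ± 0.804 FPKM. The 2 below 1 FPKM were Timd4, of long-lived macrophages, at 0.613 ± 0.593 FPKM, and Fcgr1. Of 11 monocyte and neutrophil markers 2 reached 1 FPKM in every file, Ly6c2 at 20.6 and Ccr2 at 1.99 FPKM, ahead of Cxcr2 and Csf3r, while 5 were at 0, S100a8 and S100a9 among them. Of 13 dendritic cell markers 6 did, led by Tcf4, Bst2, Irf8 and Ly6d at 20.1, 19.2, 14.8 and 3.36 FPKM, of which Tcf4 and Bst2 are not confined to dendritic cells; Flt3, Xcr1 and Zbtb46 were under 1 FPKM. No eosinophil marker of 9 reached 1 FPKM in every file; Alox15 and Ear2 had means of 1.34 and 1.20 FPKM, Siglecf and Prg2 were lower and Epx, Ear1, Ear6 and Ccr3 were at 0. Which cells the marker transcripts came from was not tested, nor was the part of each cell type in the receptor levels.

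Receptors of the Cd209 family, relatives of human DC-SIGN, were close to the limit of the depth. Cd209c was at 0.953, 0.572 and 1.74 FPKM (mean 1.09 ± 0.595, 11 fragments) and none of the 7 genes reached 1 FPKM in every file. Cd209f was at 1.54, 1.26 and 0 FPKM, Cd209g at 0.717, 0.431 and 0 FPKM and Cd209a at 0.601, 0.601 and 0 FPKM. For Cd209f, 3 fragments of replicate 3 alone would make 2.55 FPKM, so the value of 0 there set no difference from the other files. Cd209b rested on 1 fragment, and Cd209d and Cd209e were at 0, where the limits were 0.487 and 0.212 FPKM.

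Of the 8 Siglecs none reached a mean of 1 FPKM. Cd33 was at 1.71, 0.796 and 0 FPKM, and Siglece, an inhibitory Siglec of myeloid cells, at 1.25, 0 and 0.954 FPKM. Siglec1, the sialoadhesin of resident macrophages, was at 0.382, 0.552 and 0.646 FPKM (mean 0.527 ± 0.134) and, being a long transcript, rested on 27 fragments, more than Cd33 with 22. Cd22, the B cell Siglec, had a mean of 0.394 FPKM, Siglecf of eosinophils 0.237, Siglech of plasmacytoid dendritic cells 0.118 and Siglecg, on 1 fragment, 0.0380 FPKM. Siglec15, known from osteoclasts, was at 0 (limit 0.394 FPKM). Of 20 genes that make and attach sialic acid, the ligand of these receptors, 13 were at 1 FPKM or more in every file. The synthase Nans stood at 170 ± 9.14, the transferase St6galnac6 at 149 ± 9.07, Cmas, which activates sialic acid, at 117 ± 6.99 and Gne, the first enzyme of its synthesis, at 101 ± 4.66 FPKM. Others were as low as the Siglecs: the transferases St3gal5, St6galnac3, St6galnac1, St8sia1 and St6gal2 had means from 0.514 down to 0.0834 FPKM. Of 9 B cell markers only Cd79b, at 2.48 ± 0.130 FPKM, reached 1 FPKM in every file, followed by Cd79a, Bank1 and Cd22, and Pax5 was at 0.

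Among the Lilr and Sirp genes, Sirpa was by far the highest. It encodes an inhibitory receptor of macrophages and dendritic cells that reads the signal of Cd47 (chromosome 2, 129592839 to 129632228). Sirpa stood at 6.52, 5.51 and 7.53 FPKM (mean 6.52 ± 1.01, 189 fragments), which overlapped Fcgr2b above it and Mrc1 below it. Its ligand Cd47 stood at 17.6 ± 1.64 FPKM, and the ratio of receptor to ligand was 0.372, 0.344 and 0.390. Lilrb4a, an inhibitory receptor also called gp49B, was at 1.79, 1.68 and 0 FPKM (mean 1.16 ± 1.00). In replicate 3 alone 3 fragments would make 1.81 FPKM, about the level of the other files. Its near-identical neighbour Lilr4b was at 0.512, 0.501 and 0.778 FPKM, and Lilra5, Lilra6, Sirpb1a and Sirpb1b had means from 0.0836 to 0.363 FPKM.

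In the Cd300 family, Cd300lg, a mucin-like protein of capillary endothelium, stood at 1.82, 1.63 and 2.21 FPKM (mean 1.88 ± 0.296). Cd300lh was at 1.38, 1.08 and 1.40 FPKM (mean 1.28 ± 0.181), a level that rested on 6.33 fragments because the transcript is short. Cd300ld, Cd300lb, Cd300lf, Cd300e and the inhibitory Cd300a had means from 0.249 to 0.859 FPKM, and Cd300c was at 0 (limit 0.647 FPKM). Trem2, the lipid-sensing receptor of macrophages that pairs with Tyrobp, was at 1.14, 1.71 and 4.33 FPKM (mean 2.39 ± 1.70, 15 fragments). The value of replicate 3 carried this mean, which was 1.43 FPKM without that replicate. Its adaptor Tyrobp was likewise highest in replicate 3, on 13 fragments there beside 5 for Trem2. The chi-square test called neither gene different between files. Trem1, an amplifier of inflammation in neutrophils and monocytes, was at 0.0616 ± 0.0533 FPKM on 2 fragments, Treml4 rested on 2 fragments and Treml2 on 1, and Trem3 and Treml1 were listed at 0.

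The killer cell lectin-like receptors were the largest and lowest group. None of the 36 gene symbols reached 1 FPKM in every file and 18 were listed at 0. Some of these symbols share a place: Klra6 with Klra19, Klra8 with Klra21, Klra4 with Klra12 and Klra18, Klra13-ps with Klra23, and Klra15 with Klra22. Fragments can be divided there, as in replicate 2 with 0.899 for Klra19 and 0.101 for Klra6. The counts of this group are therefore counts of symbols, and a 0 at a shared place does not show a silent gene. Klra2, a member of the Ly49 family known from myeloid cells, was at 0.651, 1.47 and 0.990 FPKM (mean 1.04 ± 0.409, 15 fragments). Klrc1, the inhibitory NKG2A chain, was at 0.924, 0.291 and 0.468 FPKM, and its partner Klrd1, or CD94, at 1.88 FPKM in replicate 2 and at 0 in the other files. Klrk1, the activating receptor NKG2D, rested on 4 fragments with a mean of 0.176 FPKM, and Klre1 on 2. In all, 17 of these genes were above 0 with means from 0.00074 to 0.628 FPKM. Klrg1, a receptor of mature effector cells, was at 0 (limit 0.284 FPKM). The others at 0 were Klra3, Klra4, Klra5, Klra9, Klra10, Klra12, Klra13-ps, Klra14-ps, Klra15, Klra17, Klra18, Klra22, Klra23, Klrb1f, Klrb1-ps1, Klrc2 and Klrc3, with limits from 0.245 to 0.884 FPKM. Among natural killer and innate lymphoid markers, Id2 stood at 39.1 ± 2.51 FPKM and the granzyme Gzma at 1.98 ± 1.19 FPKM. Nkg7 had a mean of 1.64 FPKM, the natural killer receptor Ncr1 was at 0.274 FPKM and perforin, Prf1, at 0. Id2 is also made by many other cells. Of 10 T cell markers 3 were at 1 FPKM or more in every file, Cd3e, Cd3g and Cd4 at 2.65, 2.58 and 1.30 FPKM, ahead of Cd2 at 1.17 FPKM.

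Lectins of the colon outside these families were on another scale: 16 of the 29 measured were at 1 FPKM or more in every file. Zg16 of goblet cells stood at 3151 ± 119, the galectins Lgals4 and Lgals3 at 1653 ± 43.6 and 588 ± 8.78, and Reg4 at 223 ± 7.14 FPKM. Colec11 and the scavenger receptor Olr1 were listed at 0.

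Many of the receptor genes sit in clusters. With neighbours at most 500000 bases apart, 8 clusters of 3 or more held 89 of the 123 genes. The natural killer gene complex on chromosome 6 (128609227 to 130386874) held 45 of them by name, 20 at 0 and 3 at 1 FPKM or more in every file: Clec2h, Clec2d and Clec7a. Some of its Klra names share a place. Clec2h and Clec2d, ligand genes and the 2 highest of the 123, thus lay mostly among genes at or near 0. The Fc receptor cluster on chromosome 1 (170907273 to 171234349) held 6 genes and was the most fully measured, with Fcgr2b, Fcgr4, Fcgr3 and Fcer1g at 1 FPKM or more in every file and Fcrlb at 0. Another chromosome 6 cluster (122921848 to 123289871) held 9 Clec4 genes, of which Clec4a1, Clec4a3 and Clec4n reached that level. The Trem cluster on chromosome 17 held 6 genes, the Cd300 cluster on chromosome 11 held 7 and the Fcrl cluster on chromosome 3 held 3, each with 1 gene at that level. None did in the 9 genes of the Cd209 cluster on chromosome 8 or in the 4 Siglecs on chromosome 7.

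**Figure D3:**
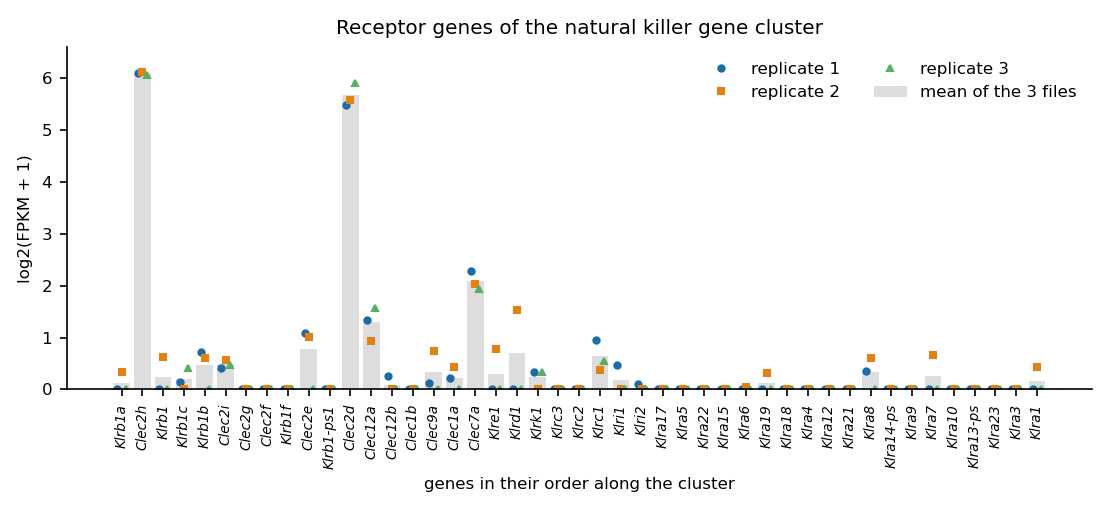
Level of the 45 receptor genes of the natural killer gene complex, in their order along chromosome 6, as log2(FPKM + 1). Each file has 1 symbol and a grey bar marks the mean. Some Klra names share a place. Clec2h and Clec2d stand at 67.5 and 49.9 FPKM and Clec7a and Clec12a at 3.26 and 1.46 FPKM, while the Klra genes at the right are at or near 0.

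Several isoforms are listed for 13 of the 27 highest genes. In 7 of them the leading isoform was the same in every file, and in 6, Cd163, Cd300lg, Clec4a3, Clec4n, Lilrb4a and Sirpa, it changed from file to file, so their isoform shares were not measurable at this depth. A single isoform held more than 95% in every file in 3 genes, Clec7a, Trem2 and Klra2. Cd300lh was the 1 gene with a pair of isoforms at 20% or more in every file, and these are copies of the same transcript at separate places, to which the software gave equal parts.

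Clec7a and Fcgr2b are shown because in each the isoforms differ by 1 exon that GENCODE counts as coding. For Clec7a the short isoform NM_001309637 held all but a trace in each file (99.997%, 99.999% and 99.997%). The long isoform NM_020008 had upper bounds of 0.250, 0.250 and 0.760 FPKM, the file values of the short one being 3.87, 3.07 and 2.84. The exon that only the long isoform holds has 135 bases, a multiple of 3, and is known as the stalk exon, between the membrane part and the lectin domain. In the reference sequence printed here its reading frame holds 1 stop codon, TGA at bases 9 to 11 of the exon counted from its first base, and GENCODE types the long transcript a polymorphic pseudogene and the short one protein coding. Which base the RNA of these mice carries there was not analysed here. It is exon 3 of 6, on the minus strand of chr6:129468869-129469003 (GRCm38, GENCODE transcripts), and is given in capitals with 30 coding bases on each side:
Clec7a stalk exon: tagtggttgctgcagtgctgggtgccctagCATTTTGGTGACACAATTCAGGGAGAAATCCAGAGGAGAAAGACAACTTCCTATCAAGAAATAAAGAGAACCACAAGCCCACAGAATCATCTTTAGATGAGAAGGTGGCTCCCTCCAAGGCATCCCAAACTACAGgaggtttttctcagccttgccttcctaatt
For Fcgr2b the isoform NM_010187, without the extra exon, held 82.6%, 99.999% and 99.998% in replicates 1, 2 and 3. The longer NM_001077189, the form known from B cells, was at 1.44 FPKM in replicate 1 and near 0 in the other files, where its upper bounds were 0.383 and 1.16 FPKM. Its exon 6 of 8 has 141 bases with no stop codon in frame, codes 47 residues of the tail inside the cell, and lies on the minus strand of chr1:170963325-170963465:
Fcgr2b tail exon: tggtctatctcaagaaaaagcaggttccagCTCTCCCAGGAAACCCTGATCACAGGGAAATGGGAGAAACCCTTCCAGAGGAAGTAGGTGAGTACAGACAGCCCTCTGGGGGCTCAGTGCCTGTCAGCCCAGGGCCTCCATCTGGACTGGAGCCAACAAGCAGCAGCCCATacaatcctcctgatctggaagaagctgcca

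**Figure D4:**
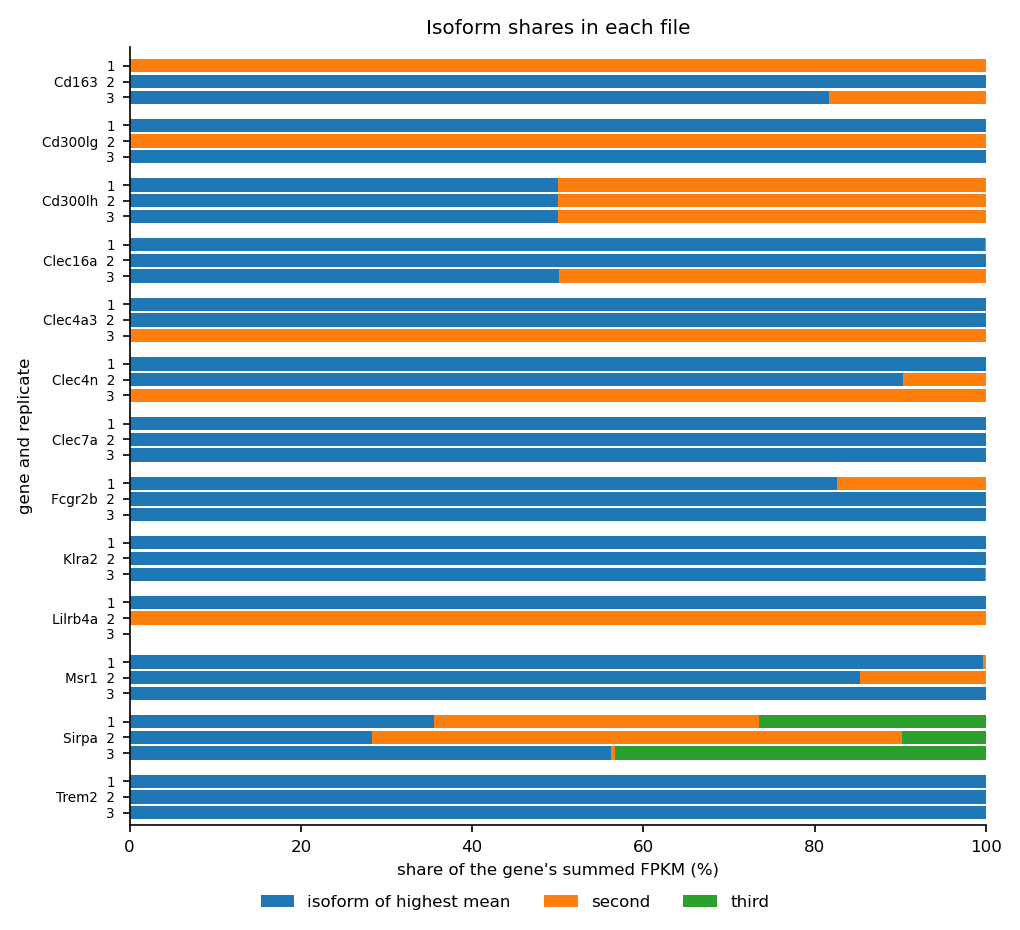
Share of each isoform in the summed FPKM of its gene (horizontal axis, percent), for the 13 receptor genes that have several isoforms and a mean of 1 FPKM or more, with 1 bar per file; colours rank isoforms by mean level and Lilrb4a has no bar in replicate 3, where it was listed at 0. Clec7a, Trem2 and Klra2 keep 1 isoform in every file, while Cd163, Cd300lg, Clec4a3, Clec4n and Lilrb4a change from one to another.

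Promoters were searched because many of these genes are known targets of PU.1, a factor of myeloid and B cells whose site has GAGGAA at its core. The 250 bases before the start were read on both strands for GAGGAA and, separately, for the TATA box letters TATAAA, in the 92 receptor genes that have an entry in the RefSeq promoter table (GRCm38.p6). GAGGAA was found in 56 of 104 promoters of receptor genes (53.8%) and in 23.3% of all promoters. It was found in 14 of 21 promoters of genes whose mean was 1 FPKM or higher (66.7%), in 30 of 61 of genes above 0 with a lower mean (49.2%) and in 12 of 22 of genes at 0 (54.5%). TATAAA was found in 28 of 104 (26.9%) against 12.4% of all promoters, but in 1 of the 21 promoters of this highest class, that of Fcrls. Genes may have several promoters, and a match describes the letters only. The last 150 bases before the start are shown for 3 receptor genes of macrophages with the match, in capitals as GAGGAA or TTCCTC, and for the adaptor gene Fcer1g and for Clec2h, which have none, like Clec2d:
Fcgr3, chr1:171059404-171059553, minus strand: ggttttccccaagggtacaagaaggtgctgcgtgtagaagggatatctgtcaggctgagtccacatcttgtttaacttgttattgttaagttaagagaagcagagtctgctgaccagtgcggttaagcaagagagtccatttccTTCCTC
Mrc1, chr2:14229264-14229413, plus strand: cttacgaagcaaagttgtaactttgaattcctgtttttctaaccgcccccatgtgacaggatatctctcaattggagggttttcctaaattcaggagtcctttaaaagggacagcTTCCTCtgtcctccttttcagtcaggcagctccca
Clec7a, chr6:129472780-129472929, minus strand: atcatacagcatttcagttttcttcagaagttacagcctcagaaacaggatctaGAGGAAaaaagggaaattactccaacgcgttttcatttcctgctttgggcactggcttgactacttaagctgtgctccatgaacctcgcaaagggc
Fcer1g, chr1:171234350-171234499, minus strand: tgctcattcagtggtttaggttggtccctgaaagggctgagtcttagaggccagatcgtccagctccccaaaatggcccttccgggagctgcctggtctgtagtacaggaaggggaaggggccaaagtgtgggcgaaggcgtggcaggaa
Clec2h, chr6:128662235-128662384, plus strand: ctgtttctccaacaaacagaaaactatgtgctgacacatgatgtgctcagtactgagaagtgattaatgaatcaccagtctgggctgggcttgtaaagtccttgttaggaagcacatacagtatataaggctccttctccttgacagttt
In Fcgr3 the match ends at the base before the start, and in Mrc1 and Clec7a it lies further upstream.

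Low values rest on few fragments. Of the 62 receptor genes above 0 with a mean under 1 FPKM, 50 had fewer than 10 fragments over the 3 files together, 16 were above 0 in every file, 24 in 2 files and 22 in 1. Single-file values came from replicate 2 in 13 genes, from replicate 1 in 8 and from replicate 3 in 1. Replicate 3, with the least depth, listed 76 of the 123 genes at 0, against 48 in replicate 1 and 47 in replicate 2. Limits for the 34 genes at 0 in every file ran from 0.123 FPKM for Clec3a to 0.884 FPKM for Klrb1-ps1 and cover counting error only; all lie under 1 FPKM.

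**Figure D5:**
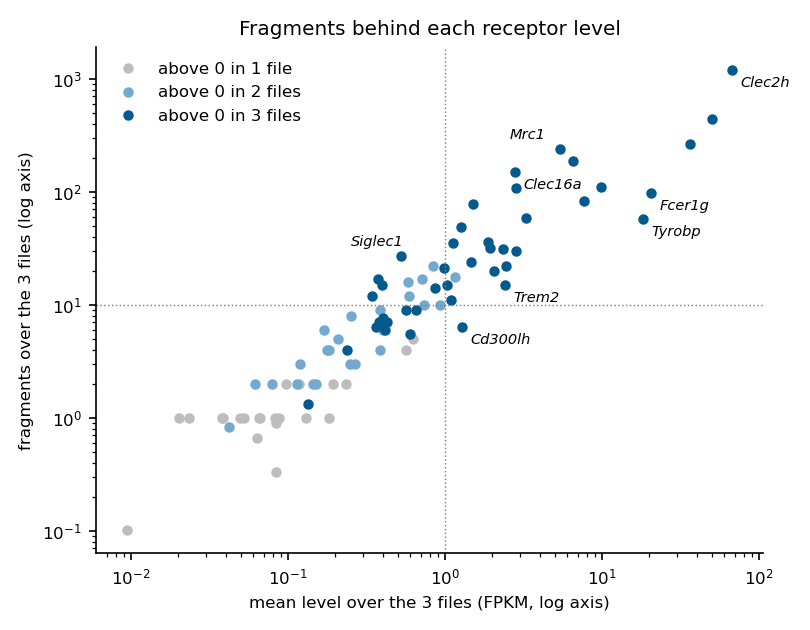
Fragments over the 3 files (vertical axis) against mean FPKM (horizontal axis) for each receptor gene above 0, both on log axes, coloured by the number of files above 0; dotted lines mark 10 fragments and 1 FPKM, and Klra21, with less than 0.05 fragments, is not drawn. Cd300lh passes 1 FPKM on 6.33 fragments, whereas Siglec1 stays at 0.527 FPKM with 27.

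Sequence shared with other genes makes some levels uncertain. Of 115 receptor genes with a GENCODE transcript, 22 matched a transcript of some other gene over 100 bases or more with an identity of 97% or above. Among the 26 with a mean of 1 FPKM or more these were Fcgr2b (262 bases), Clec16a (101), Lilrb4a (1381) and Cd209c (430). Clec2h, Clec2d, Clec3b, both adaptors, Fcgr3, Sirpa, Mrc1 and Clec7a had none. Of the killer cell receptors, 6 of 29 with a transcript matched another gene, Klrc1 and Klrc2 over 1163 bases. Klra12, Klra15, Klra18, Klra19, Klra21, Klra22 and Klra23 have no GENCODE transcript and were not searched. They share their places with other Klra genes, so the count of 6 can miss shared sequence in this group. Exons of Fcgr2b overlap the antisense gene Gm38204 over 155 bases, 2.68% of its exonic length, and those of Lilrb4a overlap Gm49339 on the same strand over 35.3%.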

How the data were processed

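Polyadenylated RNA of 3 distal colon files, 1 group, was analysed. FPKM values per isoform were deposited by the authors with 95% bounds, per the file headers. Read coverage per isoform, a signal deposited beside them, was only summed. The submitters' processing notes list Cufflinks 2.2.1, Bowtie2 2.3.4.3 and TopHat2 2.1.1. Whether strand was used, and how shared reads were treated, was not given in the sources used here. As build the notes name GRCm39, but the positions are those of GRCm38: of 116 receptor genes compared with RefSeq on GRCm38.p6, 111 (95.7%) had a start or end within 1000 bases.

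Isoform FPKM were summed per symbol. The members and lists were chosen with earlier results of these data known. Every member with a mean of 1 FPKM or more, every member at 0, markers and partners among the rest, the 4 highest genes of each list and the 3 members of smallest p are named. One listed marker is not reported here. The upper bound less the FPKM was read as 2 standard errors, and (FPKM/standard error) squared as fragments; 64.1% to 64.3% of low values were whole within 0.01. A Theil-Sen slope on length gave the depth (genes over 800 bases with up to 30 fragments). Member fragments, at lengths shortened by 164 bases on average, were whole within 0.05 in every file in 69 of 89 members above 0. The depth is 8.81e+06 fragments in all. Limits are worth 3 fragments and, like all intervals, cover counting error only. The chi-square test between files was also tested on simulated data of those 8771 genes: when nothing was changed, 3 were called, and of genes changed 1.5-fold and 2-fold in 1 file 30% and 78% were recovered, with 7 unchanged genes called. Copies were sought with BLAST 2.17.0. Protein motifs are not analysed here. SciPy 1.17.1, pandas 2.3.3, numpy 2.4.6 and, for the plots, matplotlib 3.10.9 ran under Python 3.11.15. Alternatives covered thresholds, isoforms, rescaling, depth weights, the pseudocount and leaving out each replicate.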

Additional observations from a re-analysis of the deposited data

How the results depend on the processing

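The number of receptor genes at the threshold in every file was 22 at 1 FPKM, 12 at 2 FPKM and 29 at 0.5 FPKM, and ranged from 22 to 27 when each replicate was left out. The number at 0, which was 34 over all files, ranged from 35 to 47 in the same way. Both counts ask for a condition in every file, so leaving out a file can only keep or raise them. The median of log2(FPKM + 1), 0.23, became -1.86 with a pseudocount of 0.1 and 0.49 over the genes above 0 alone. The chi-square test called no receptor gene different between files at a minimum of 5 FPKM, over genes of any isoform number, or without any one replicate. Of 27 named means, taking only the highest isoform moved 3 by more than the SD over files, Sirpa to 3.37 and Cd300lh to 0.642 FPKM among them. Equalising the sums of the files (compared on the FPKM scale) moved none by that much. Depth weights and leaving out a replicate cannot do so, since by arithmetic either shift stays under the SD of the same 3 files. These settings therefore do not tell how firm the means are. Trem2 fell from 2.39 to 1.43 FPKM without replicate 3. No paired analysis was possible because the series holds 1 group. Depth limits the reading of most genes under 1 FPKM.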

Other observations

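Fragments were not whole in 20 genes above 0, some of them without a near-identical copy, such as Clec2h and Fcgr3. Among those with a copy, Lilrb4a was assigned 17.5 fragments and its near-identical neighbour Lilr4b 5.5, together 23. Cd209f and Cd209g, alike over 503 bases at 99.6% identity, came to 14 together. Of the 34 genes listed at 0, 7 carry a deposited upper bound above 0, and all 7 are Klra genes: Klra4, Klra12, Klra13-ps, Klra15, Klra18, Klra22 and Klra23. In 21 genes replicate 3 alone was at 0 while both other files were above it. For Cd33 the mean of those files was 1.25 FPKM, above the 1.04 FPKM that 3 fragments of replicate 3 would make, and it was the 1 gene of the 21 for which this held.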
